A study of Oryza sativa with 4 samples.

Results

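The phenylalanine ammonia-lyase (PAL) family of rice was examined in leaf RNA-seq data as 9 gene identifiers of the Rice Annotation Project, chosen by name and position and not by any measured value, out of 37858 genes listed. Of these, 4 lie close together on chromosome 2, a pair lies on chromosome 4, and chromosomes 5, 11 and 12 hold 1 each. The leaves came from "Nipponbare" plants grown from control seeds (CS), whose mother plants were kept at 25 °C during grain filling, or from heat-developed seeds (HDS), whose mother plants were kept at 30 °C. Both sets of plants were themselves grown under the same natural conditions, and each group had 2 libraries, each taken as a separate plant in the study's methods. The comparison asks whether the temperature at which a seed matured goes with another level of PAL transcripts in the leaves of the plant that grows from it.

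PAL removes ammonia from phenylalanine and so makes trans-cinnamic acid. This is the first committed step of the phenylpropanoid pathway, which supplies lignin, flavonoids, hydroxycinnamic acids of the grass cell wall and many defence compounds. Plants usually carry several PAL genes, often in tandem, and PAL transcripts are known to rise with wounding, infection and ultraviolet light. In maize and other grasses some PAL enzymes also accept tyrosine.

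The libraries held between 15444235 and 17298384 expected counts, and levels are given below in CPM, the count of a gene relative to the size of its library after scaling by edgeR's TMM factors. The PAL genes divided into 6 that were well measured and 3 at the limit of detection. Os02g0626600, on chromosome 2, had 0 counts in all 4 libraries, which allows up to 3 counts in each, or between 0.168 and 0.205 CPM. Os11g0708900 had 0 counts in CS replicate 1, CS replicate 2 and HDS replicate 1, and 2 counts in HDS replicate 2. No fold change is given for this gene, as every library lay below that same limit. Os12g0520200 had 6 and 7.79 expected counts in CS leaves and 6.14 and 18 in HDS leaves, and was too low to be kept by edgeR's filterByExpr. Transcripts of these 3 genes were therefore near or below what this depth can measure in leaves. The other 6 genes had between 20 and 3513 counts per library. Their expected counts were whole in every library, so no division of reads with another gene is visible in them, although members of a family can resemble each other. Transcript lengths were not used here, so levels are compared between libraries and not between genes.

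With all 4 libraries and no replicate block, no PAL gene passed a test between HDS and CS plants. The study called a gene when edgeR's exactTest gave P below 0.05 without adjustment and log2 fold change was 0.37 or more, up or down. By these criteria, 0 of the 8 PAL genes with any count were called, against 7.88% of the 29698 genes tested in the same way. The lowest unadjusted P among them was 0.200, and the lowest P adjusted over all genes by edgeR's exactTest was 0.980. The quasi-likelihood test of edgeR, adjusted over all genes after Benjamini and Hochberg, called 0 of the 6 genes kept, against 0.699% of 22184 genes. Their lowest unadjusted P in this edgeR test was 0.223 and their adjusted P lay between 0.759 and 0.947, and DESeq2 also called 0. In each of the 8 genes, the 6 kept among them, the levels of the CS and HDS libraries overlapped, in Os11g0708900 only by a tie at 0. Over all 22184 genes kept, the libraries of the treatments did not overlap in 40.5%. The fitted log2 fold changes of the 6 kept genes ran from -0.25 to 0.95, 3 being above 0 and 3 below, with a median of 0.13 beside 0.01 over all genes kept. A P above the limit with 2 plants per treatment does not show that the levels were equal. In RNA of whole leaves, a difference in the number of cells that express a gene and a difference in its RNA per cell cannot be told apart.

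**Figure D1:**
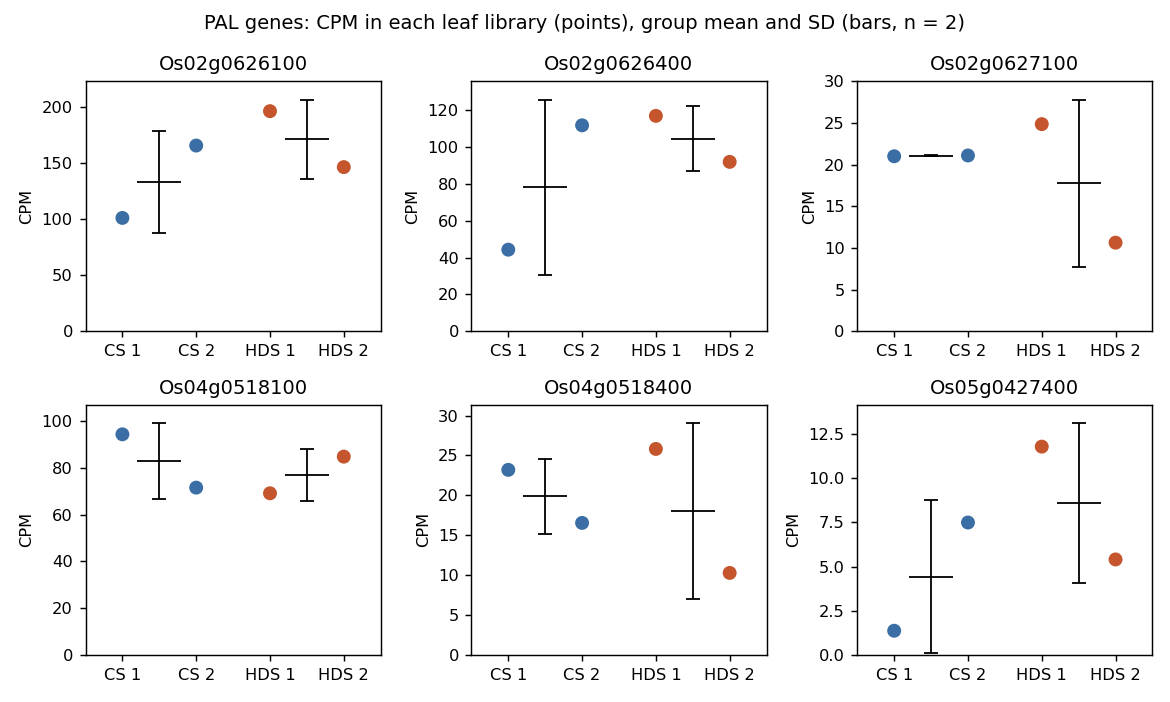
CPM of the 6 well-measured PAL genes in each library, with CS in blue and HDS in orange; each panel has its own vertical axis from 0, and the horizontal mark and bars give the mean and SD of the 2 libraries of a treatment. CS replicate 1 is the lowest library for Os02g0626100, Os02g0626400 and Os05g0427400, HDS replicate 2 is the lowest for Os02g0627100 and Os04g0518400, and the treatments overlap in every panel.

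The first pair of the chromosome 2 cluster, Os02g0626100 and Os02g0626400, took most of the PAL counts. Os02g0626100 stood at 101 and 166 CPM in CS leaves and at 196 and 146 CPM in HDS leaves. This is 133 ± 45.7 CPM for CS and 171 ± 35.3 CPM for HDS (SD, n = 2 each). CS replicate 1 was the low library, and HDS replicate 2 lay below CS replicate 2. Its log2 fold change of 0.36 was smaller than its standard error of 0.41. Os02g0626400 stood at 44.3 and 112 CPM in CS leaves and at 117 and 91.9 CPM in HDS leaves. Again CS replicate 1 stood alone at the bottom, and the other 3 libraries lay close together. The log2 fold change was 0.42 with a standard error of 0.69.

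Os05g0427400, the PAL gene of chromosome 5, had the widest range of the well-measured genes. Its counts were 20 and 130 in CS leaves and 211 and 91 in HDS leaves, or 1.37, 7.49, 11.8 and 5.41 CPM. The highest library was therefore 8.62 times the lowest, and the lowest was again CS replicate 1. The mean was 4.43 ± 4.33 CPM for CS and 8.60 ± 4.52 CPM for HDS (SD, n = 2 each). Its log2 fold change of 0.95 was the largest of the 6 kept genes, with a standard error above that value and an unadjusted P of 0.210 by edgeR's exactTest.

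Another order of the libraries was seen in Os02g0627100, the last PAL gene of the chromosome 2 cluster, and Os04g0518400, the second of the chromosome 4 pair. Os02g0627100 stood at 21.0 and 21.1 CPM in CS leaves, and at 24.9 and 10.6 CPM in HDS leaves. The CS plants hardly differed in this gene, and the HDS plants lay on either side of them. Os04g0518400 stood at 23.2 and 16.5 CPM in CS leaves and at 25.8 and 10.3 CPM in HDS leaves. HDS replicate 2 was the lowest and HDS replicate 1 the highest library for both genes. Their log2 fold changes were -0.25 (standard error 0.61) and -0.14 (standard error 0.70).

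Os04g0518100, the first gene of the chromosome 4 pair, was the steadiest. It stood at 94.4 and 71.6 CPM in CS leaves and at 69.2 and 84.9 CPM in HDS leaves, so that its highest library was 1.36 times its lowest. The highest was CS replicate 1, in which 3 other PAL genes were at their lowest, and the lowest was HDS replicate 1, in which the other 5 well-measured genes were at their highest. The mean was 83.0 ± 16.1 CPM for CS and 77.0 ± 11.1 CPM for HDS (SD, n = 2 each), a log2 fold change of -0.11 with a standard error of 0.25.

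The likeness of these patterns followed the position of the genes on the chromosomes only in part. It was measured as the root mean square difference of log2 CPM over the 4 libraries, each gene being centred on its own mean, and is a description only. The most alike pair was Os02g0627100 and Os04g0518400, on different chromosomes, with a difference of 0.18. The next was the neighbouring pair Os02g0626100 and Os02g0626400, with 0.24. In contrast, the neighbours Os04g0518100 and Os04g0518400 differed by 0.58, and Os02g0626400 and Os02g0627100 of the chromosome 2 cluster by 0.73. The ratio of Os04g0518400 to Os02g0627100 counts lay between 0.784 and 1.10 in the 4 libraries. The ratio of Os04g0518400 to its neighbour Os04g0518100 was 0.246 and 0.231 in CS leaves, and 0.373 and 0.121 in HDS leaves. The latter ratio thus differed most between the HDS plants.

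Genes listed between the members did not share 1 pattern either. Os02g0626532, listed between Os02g0626400 and Os02g0626600, had 3 and 37 counts in CS leaves and 38 and 9 in HDS leaves. Os04g0518200, listed between the chromosome 4 pair, had 903 and 1190 counts in CS leaves and 1139 and 1101 in HDS leaves. Os02g0626200, also on chromosome 2, had at most 2 counts in any library. Neither Os02g0626532 nor Os04g0518200 met the study's criteria (P = 0.898 and 0.935 by edgeR's exactTest).

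Summed over the family, PAL transcripts stood at 286 and 395 CPM in CS leaves and at 445 and 351 CPM in HDS leaves. The means were 340 ± 77.0 CPM for CS and 398 ± 66.8 CPM for HDS (SD, n = 2 each), and HDS replicate 2 lay below CS replicate 2. The make-up of this sum differed between libraries of the same treatment. In CS replicate 1, Os04g0518100 made up 33.0% of the PAL counts (95% interval 31.6 to 34.5, exact binomial), against 18.1% in CS replicate 2 (17.2 to 19.1), 15.5% in HDS replicate 1 (14.8 to 16.4) and 24.2% in HDS replicate 2 (23.1 to 25.3). Os02g0626400 made up 15.5% in CS replicate 1 (14.4 to 16.6), and between 26.2% and 28.3% in the other 3 libraries. These intervals cover counting error only. HDS replicate 2 stood apart in another pair of genes. Os02g0627100 made up 3.03% of its PAL counts (2.61 to 3.50), against 5.35% to 7.35% in the other libraries, and Os04g0518400 made up 2.93% (2.51 to 3.39), against 4.19% to 8.12%.

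**Figure D2:**
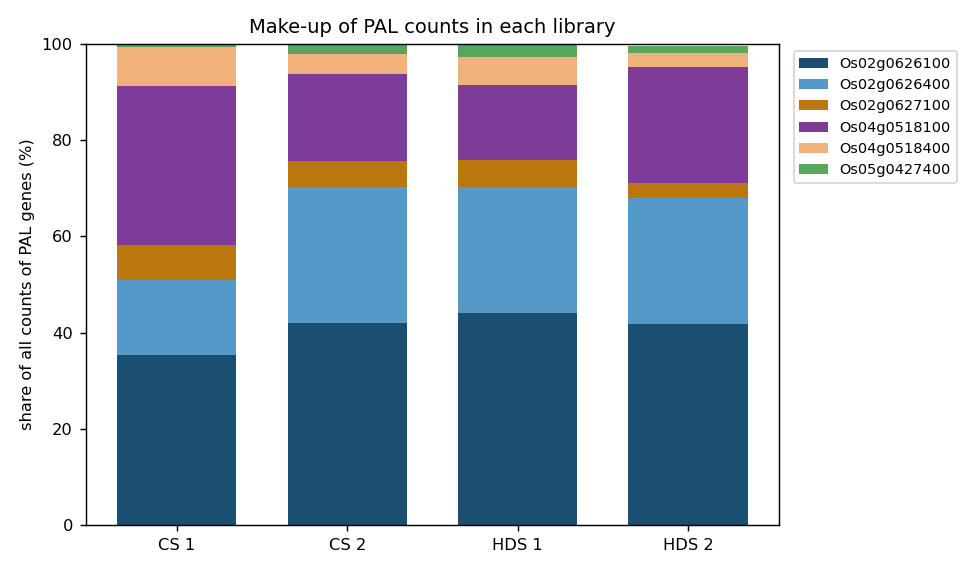
Share of each well-measured PAL gene in the counts of the whole family, as stacked bars for the 4 libraries, with the 3 scarce genes not drawn. Os04g0518100 takes 33.0% of the PAL counts in CS replicate 1 and between 15.5% and 24.2% in the other libraries, where Os02g0626400 takes a larger part.

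The gap between plants of a treatment was larger than usual in several PAL genes. Over all 22184 genes kept, the median absolute gap in log2 CPM was 0.29 for CS plants and 0.17 for HDS plants. CS replicate 2 exceeded CS replicate 1 by 0.71 in Os02g0626100, by 1.33 in Os02g0626400 and by 2.35 in Os05g0427400. A gap between the CS libraries at least as large was found in 16.5%, 5.01% and 1.40% of all genes, respectively. HDS replicate 2 lay below HDS replicate 1 in 5 of the 6 genes. The gap was -1.22 in Os02g0627100, -1.32 in Os04g0518400 and -1.11 in Os05g0427400, and 2.53%, 2.01% and 3.15% of all genes had a gap of that size between the HDS libraries. Os05g0427400 thus differed widely within both treatments. CS replicate 1 was the lowest library for 35.3% of all genes kept and the highest for 33.4%, in both cases more than any other library.

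**Figure D3:**
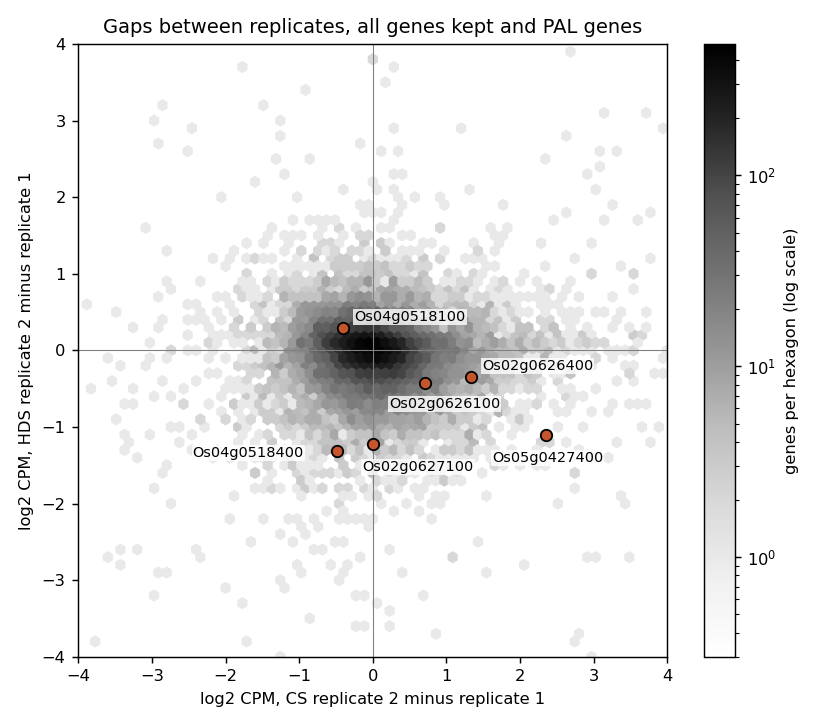
Gap in log2 CPM from replicate 1 to replicate 2 within a treatment, CS on the horizontal and HDS on the vertical axis, for the 22184 genes kept (grey hexagons, darker for more genes on a log scale) and the 6 well-measured PAL genes (orange points), with 70 genes beyond 4 on either axis not drawn. Os05g0427400 lies far out at 2.35 and -1.11. Os04g0518100 lies at -0.40 and 0.29, with absolute gaps above the medians of all genes kept on both axes.

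A single plant decided whether PAL genes were called. Without CS replicate 2, 3 of the 8 genes met the study's criteria as higher in HDS plants, against 9.62% of all genes tested in that setting. These were Os02g0626100 (log2 fold change 0.74), Os02g0626400 (1.22) and Os05g0427400 (2.62), with adjusted P of 0.00733, 2.35e-07 and 0.000114 by edgeR's exactTest. The quasi-likelihood test of edgeR also called these 3 genes in that setting, against 5.7% of all genes as higher. Without CS replicate 1, the same 3 genes had log2 fold changes of 0.04, -0.10 and 0.19 and none was called. Without HDS replicate 1, Os02g0627100 (-0.99) and Os04g0518400 (-0.95) met the study's criteria as lower in HDS plants, against 1.83% of all genes, with adjusted P of 0.658 and 1.00 by edgeR's exactTest. Without HDS replicate 2, the same genes had values of 0.24 and 0.38 and 0 PAL genes were called. In each of these settings the plant left alone in its treatment is assumed to vary like those of the other treatment.

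**Figure D4:**
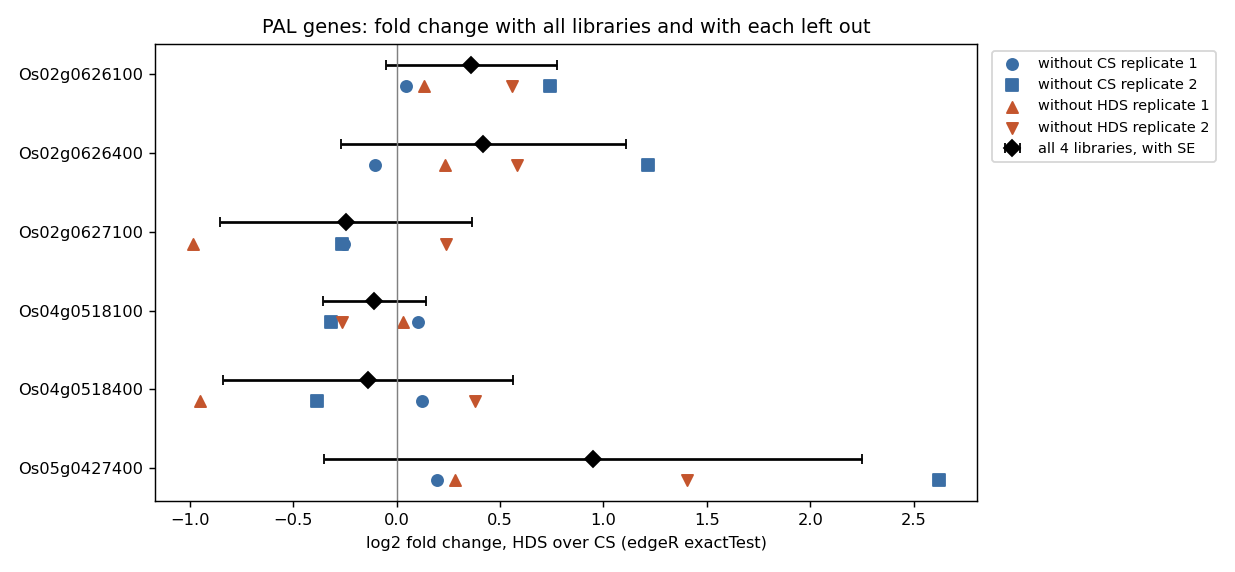
Log2 fold change of HDS over CS plants for the 6 well-measured PAL genes by edgeR's exactTest, with all libraries (black diamonds) and after leaving out each library (coloured symbols). Bars give 1 standard error of the difference in mean log2 CPM, a separate estimate from the fold change drawn. The value of Os05g0427400 runs from 0.19 without CS replicate 1 to 2.62 without CS replicate 2, and those of Os02g0627100 and Os04g0518400 lie on either side of 0.

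The genes most like the family sum were searched among 12596 genes with a mean of at least 10 CPM, by the same root mean square difference over the 4 libraries. They were Os09g0370500 (0.01), Os03g0851100 (0.02) and Os03g0717900 (0.02). Os09g0370500, the closest, stood at 14.3 and 19.5 CPM in CS leaves and at 22.4 and 17.6 CPM in HDS leaves. Among so many genes some will come close over 4 libraries, and no table used here gives these identifiers a name.

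The steps before and after PAL were followed with a list of 23 other identifiers, held to be those of the enzyme that makes phenylalanine and of the enzymes from cinnamate hydroxylation to lignin monomers and the first flavonoid steps. The list was recalled from general knowledge and no table used here pairs its identifiers with names, so it is given by its counts and single genes of it are not assigned a step. Of the 23 genes, 3 met the study's criteria as higher and 1 as lower in HDS plants, and 19 did not meet them. This is 17.4%, against 7.88% of all genes. By edgeR's quasi-likelihood test with adjustment, 0 of the 18 genes kept were called, against 0.699% of all genes kept, the lowest adjusted P being 0.0797. DESeq2 with adjustment called 2 of the list and 566 genes of the whole table. In the quasi-likelihood test 2 had an unadjusted P under 0.05, and the share of all genes at that limit was not computed. Leaving out a library changed the 4 genes called by the study's criteria to 2 without CS replicate 1, 11 without CS replicate 2, 2 without HDS replicate 1 and 8 without HDS replicate 2. Over all genes tested, 7.37%, 18.6%, 3.9% and 5% were called in these settings, respectively. The median log2 fold change of those 18 genes was 0.31, beside 0.01 over all genes kept. The gene with the smallest P, Os11g0530600, had 1.81 and 0 expected counts in CS leaves and 59.6 and 34.0 in HDS leaves. Its adjusted P was 5.41e-07 by edgeR's exactTest and 0.0797 by the quasi-likelihood test. Both CS values lay below the limit of 3 counts given above. Both HDS libraries lay above them, but the gene was picked by its P. The libraries of the treatments did not overlap in 40.5% of all genes kept. The one lower gene, Os06g0656500, fell from 1469 and 1284 counts to 851 and 778, a log2 fold change of -0.90 with a standard error of 0.22 (adjusted P = 0.00208 by edgeR's exactTest and 0.121 by the quasi-likelihood test). Summed, the list stood at 572 and 734 CPM in CS leaves and at 850 and 579 CPM in HDS leaves, so that HDS replicate 1 was the highest library and CS replicate 1 the lowest, as in the PAL sum. CS replicate 1 was the lowest library for 13 of the 18 genes kept, against 35.3% of all 22184 genes kept.

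Other lists recalled in the same way describe the tissue, with the same reservation about names. The 5 identifiers held to be Rubisco small subunit and light-harvesting genes of green leaf cells summed to 25704 and 15627 CPM in CS leaves and to 14017 and 16236 CPM in HDS leaves. CS replicate 1 thus stood apart in this sum, while 4 of the 5 met the study's criteria as lower in HDS plants, against 3.7% of all genes. In each of these 4, both HDS libraries had fewer counts, not scaled for library size, than both CS libraries. These 4 were chosen because they met the criteria as lower. By CPM, the libraries of the treatments did not overlap in 40.5% of all genes kept, in either direction. The remaining gene, with the most counts, had 186551 and 158696 in CS leaves and 166484 and 187945 in HDS leaves. Of these 5, 2 passed adjustment in edgeR's exactTest, while 0 passed the adjusted quasi-likelihood test of edgeR and 3 had an unadjusted P under 0.05 in it. The shares of all genes for adjusted exactTest and for unadjusted quasi-likelihood P were not computed. The 3 identifiers of cellulose synthases of the secondary wall, a mark of lignifying cells, summed to between 0.335 and 0.865 CPM, with 1 of them at 0 in every library. Of 4 defence-related identifiers, 2 met the study's criteria as higher, against 4.18% of all genes. By the adjusted quasi-likelihood test of edgeR 1 of the 4 passed, against 0.699% of all genes kept in either direction. The 4 summed to 1415 and 1454 CPM in CS leaves and 2681 and 1520 CPM in HDS leaves. Of 2 identifiers tied to senescence, 1 met the study's criteria as higher, against the same 4.18%. It had 27 and 41 counts in CS leaves and 476 and 199 in HDS leaves. It also passed the adjusted quasi-likelihood test, as did 0.699% of all genes kept in either direction. The sum of the 2 identifiers was 459 and 431 CPM in CS leaves and 410 and 401 CPM in HDS leaves. The 4 identifiers of spikelet genes summed to between 14.3 and 22.5 CPM, with 2 at 0 throughout. Of these 4, 1 met the study's criteria as higher, against 4.18% of all genes. The 2 of endosperm storage proteins summed to between 8.05 and 14.9 CPM. Of these 2, 0 met the criteria, against 7.88% of all genes in either direction. The part of these lists in the levels of PAL was not tested.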

How the data were processed

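Leaf RNA of 2 CS and 2 HDS plants was sequenced from stranded libraries. The labels name a TruSeq kit and the methods a NEBNext kit. Per the labels, the authors used FastQC 0.11.7, Trimmomatic, Bowtie2 and RSEM against IRGSP-1.0, and deposited RSEM expected counts per gene, without normalization. RSEM divides reads that fit several genes, which gives counts that are not whole.

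Expected counts were rounded and tested on the whole table (edgeR 4.0.16 and DESeq2 1.42.0, under R 4.3.3). The study's test, exactTest, was run here after TMM normalization on the 29698 genes with at least 1 count. The paper's methods state neither that normalization nor that filter. The quasi-likelihood test used the 22184 genes that passed filterByExpr. By the study's criteria, fewer genes were called here than the paper reports, and the reason was not tested. P-values were adjusted after Benjamini and Hochberg across all genes tested. Standard errors come from the spread of log2 CPM (prior count of 2) between replicates. They belong to the difference in mean log2 CPM, a separate estimate from the exactTest fold change printed beside them.

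Members, lists and tests were chosen with earlier results of these data known. The named genes are the 9 PAL genes, the 3 genes most like their sum, and those of the pathway list that met the study's criteria. As no name could be paired with these identifiers, only the one with the smallest P in each direction was printed. Genes listed between members were named after their values were seen. Alternatives were other normalizations, filters, tests, unrounded counts, a replicate block and each library left out. Protein and promoter sequences, transcript lengths and coordinates were not used here. 0 columns were left out.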

Additional observations from a re-analysis of the deposited data

How the results depend on the processing

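Under the other normalizations, the other filter, DESeq2, unrounded counts and adjusted exactTest values, 0 PAL genes were called, as in the results above. The fitted values of the PAL genes kept their sign in these settings. With each library left out, the number of PAL genes called lay between 0 and 3, by the study's criteria and by the adjusted quasi-likelihood test alike. The log2 fold change then ran from -0.10 to 1.22 for Os02g0626400, -0.99 to 0.24 for Os02g0627100, -0.31 to 0.10 for Os04g0518100, -0.95 to 0.38 for Os04g0518400 and -0.37 to 1.28 for Os12g0520200, while Os02g0626100 (0.04 to 0.74) and Os05g0427400 (0.19 to 2.62) stayed above 0. The family sum had a log2 difference of 0.23, and between 0.01 and 0.46 with a library left out.

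Libraries with the same replicate number did not deviate together over the whole table (r = 0.004 across 22184 genes). The sample titles give only a number, and this value does not show whether these libraries shared a step of handling. With the replicate block, a quasi-likelihood test replaced exactTest. Of the 8 PAL genes with any count, 2 then met the study's criteria, Os02g0626400 (0.55) and Os05g0427400 (1.15). So did 2825 of the 29698 genes with at least 1 count, in place of 2340. By the adjusted test 0 PAL genes were called with the block. From replicate 1 to 2, Os02g0626400 changed by 1.33 in CS and -0.35 in HDS plants, and Os05g0427400 by 2.35 and -1.11. A shift per replicate number shared by both treatments cannot describe such opposite gaps.

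Of the 23 pathway identifiers, 4 met the study's criteria, 7 with the replicate block, 2 with adjusted P in exactTest, and between 2 and 11 with a library left out. By the adjusted quasi-likelihood test 0 were called, but 2 with the replicate block, 2 without the filter on low counts, 2 with DESeq2, and between 0 and 5 with a library left out. Over the whole table, the adjusted quasi-likelihood test called 155 genes, 532 with the replicate block, 419 without the filter on low counts, 566 with DESeq2 and between 64 and 2506 with a library left out, and the study's criteria called 2340, and between 1132 and 5430 with a library left out. No count over the whole table was taken for adjusted P in exactTest. The causes of these changes were not tested. With 2 plants per treatment and at most 18 counts for the scarcest members, differences of the size seen between plants could not be told from differences between treatments.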
